A study of Mus musculus with 6 samples.

Results

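The 44 genes described here encode the subunits of the proteasome, its activators and its assembly factors. They were taken by name from a table of 18001 genes, as the rows whose mouse symbol begins with Psma, Psmb, Psmc, Psmd, Psme or Psmg and a number, together with Pomp. Psmb9, an inducible catalytic subunit, and the pseudogenes Psmb6-ps and Psmb6-ps2 were left out by the same rule, and Psmb8, Psmb10, Psma8 and Psmb11 were not analysed here. Of the 44 genes, 7 belong to the alpha ring and 7 to the beta ring of the 20S core, 6 are ATPases of the 19S base, 3 are other base subunits, 8 are lid subunits, 4 are activators and 8 are assembly chaperones. The remaining gene, Psmc3ip, matches the name rule but encodes a cofactor of meiotic recombination and not a proteasome subunit, so it is described apart.

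The genes were measured by sequencing of poly(A) RNA from NIH/3T3, an immortal line of mouse fibroblasts. The siAldoa group received a pool of 4 siRNAs directed at Aldoa, the gene of the glycolytic enzyme aldolase A, and the siCtrl group a non-targeting pool. Both groups were grown in DMEM with serum and harvested after 48 h. Each had 3 replicates from the same cell line, which the paper calls biological replicates. The spread given here is the spread between these samples, and part of it may be technical. The series asks which genes change in expression when aldolase A is depleted.

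The values are CPM, reads per gene scaled to a common effective library size. Each library held between 3692341 and 3771129 reads, and 3 reads corresponded to 0.786 to 0.822 CPM. Differences are log2 fold changes of CPM + 1, siAldoa minus siCtrl, given with their standard error, and a gene was called higher or lower at an adjusted p-value under 0.05 (limma, two-sided, adjusted over all 18001 genes). Because CPM are shares of a library, and because bulk RNA was measured, fewer expressing cells and less RNA per cell cannot be told apart. Aldoa itself was at 522, 536 and 545 CPM in siCtrl replicates 1, 2 and 3 and at 62.9, 69.2 and 72.0 CPM in siAldoa, 12.7% of the siCtrl mean (log2 fold change -2.96 ± 0.05, adjusted p = 1.3e-21). In each group replicates 1 and 2 lay closer to each other than to replicate 3, and for this reason counts without replicate 3 are given beside the main counts. All 9 fibroblast markers in the table, among them Col1a1, Col1a2 and Vim, had more than 3 reads in every library. Their summed level was 13848 to 14434 CPM in siCtrl and 11669 to 12377 CPM in siAldoa, whereas the 3 epithelial, 3 endothelial, 3 blood, 1 muscle and 1 neuron markers summed to at most 10.4 CPM per list in any library. Of these, the epithelial markers were at 6.57 to 10.4 CPM in siCtrl and at 1.83 to 4.28 CPM in siAldoa. The 18001 genes held 9 of 10 listed fibroblast markers (all but Lum), 3 of 5 epithelial, 3 of 4 endothelial and 3 of 5 blood markers. They held 1 of 3 muscle and 1 of 3 neuron markers. The other listed markers had no values, so their absence from the cells cannot be read here. None of the measured markers was at 0 in all libraries, and the part of the marker differences in the results was not tested.

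The proteasome degrades proteins that carry ubiquitin chains. Its 20S core is a barrel of stacked alpha and beta rings, in which the alpha rings form the gate and 3 beta subunits carry the proteolytic sites. The 19S particle on the ends of the barrel consists of a base, whose ATPases unfold the substrate, and a lid, which removes ubiquitin. Dedicated chaperones build the rings and the base, and the assembled core can carry other activators in place of the 19S particle. The subunit genes are known to be transcribed together, and the transcription factor NFE2L1 is known to raise them when proteasome capacity is short.

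Promoters are shown for the 2 proteasome genes of the core and the lid with the lowest log2 fold changes in their groups, Psma7 and Psmd14, and for the 2 genes that were higher in siAldoa, Psme4 and Psmd5, to set the sequences of genes with opposite differences side by side. The sequences are from RefSeq (GRCm38.p6), run 5′ to 3′ on the gene's strand from 250 bases before to 50 bases after the annotated start, and lie at chr2:180042415-180042714 (minus strand) for Psma7, chr2:61711444-61711743 (plus strand) for Psmd14, chr11:30771525-30771824 (plus strand) for Psme4 and chr2:34870913-34871212 (minus strand) for Psmd5. Capitals mark the letters of 4 motifs found on either strand: CCGGAAG, an ETS motif, TGACNNNGC, the core of the antioxidant response element that NFE2L1 and NFE2L2 bind, CCAAT, the CCAAT box, and GGGCGG, the GC box.
Psma7: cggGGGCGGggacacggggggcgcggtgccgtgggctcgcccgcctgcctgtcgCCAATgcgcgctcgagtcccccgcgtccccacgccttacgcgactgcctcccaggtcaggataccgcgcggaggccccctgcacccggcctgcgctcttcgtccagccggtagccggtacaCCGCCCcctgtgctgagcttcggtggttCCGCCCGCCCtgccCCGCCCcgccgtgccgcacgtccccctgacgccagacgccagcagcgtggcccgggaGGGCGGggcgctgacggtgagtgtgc
Psmd14: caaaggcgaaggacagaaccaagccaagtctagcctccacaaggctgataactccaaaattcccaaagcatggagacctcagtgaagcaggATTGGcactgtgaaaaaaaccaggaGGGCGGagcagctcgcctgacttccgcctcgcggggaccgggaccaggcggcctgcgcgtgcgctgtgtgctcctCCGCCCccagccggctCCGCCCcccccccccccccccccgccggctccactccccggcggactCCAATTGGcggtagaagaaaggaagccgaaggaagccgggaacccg
Psme4: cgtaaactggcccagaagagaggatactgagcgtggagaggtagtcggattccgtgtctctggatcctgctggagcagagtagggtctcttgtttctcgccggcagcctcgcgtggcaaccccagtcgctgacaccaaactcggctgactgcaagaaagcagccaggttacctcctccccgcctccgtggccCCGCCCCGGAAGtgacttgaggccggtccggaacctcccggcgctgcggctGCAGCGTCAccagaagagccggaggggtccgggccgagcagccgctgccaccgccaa
Psmd5: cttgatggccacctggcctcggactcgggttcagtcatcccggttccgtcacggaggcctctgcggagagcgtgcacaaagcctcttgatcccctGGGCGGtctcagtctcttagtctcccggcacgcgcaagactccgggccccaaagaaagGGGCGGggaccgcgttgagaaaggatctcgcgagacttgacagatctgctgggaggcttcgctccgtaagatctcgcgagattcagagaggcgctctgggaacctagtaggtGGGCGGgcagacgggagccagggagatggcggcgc
Psma7 held 1 CCAAT box and 6 GC boxes, of which 2 overlap, and Psmd14 held 3 CCAAT boxes, of which 2 overlap, and 3 GC boxes. Psme4 held 1 GC box that overlaps an ETS motif by 1 base, the ETS letters ending 47 bases before the start, and the letters TGACNNNGC on the opposite strand across the start itself. Psmd5 held 3 GC boxes and none of the other letters. RefSeq gave a promoter for 37 of the 44 genes; Psmb1, Psmb2, Psmb7, Psmc3, Psmd3, Psmd7 and Psmg2 had no match by symbol. Among these 37 promoters, 16 held CCGGAAG (43.2%), against 9.93% of all 27025 promoters of the same length and 17.8% of the 11192 promoters of genes in the table. The letters were in 11 of the 22 promoters of genes called lower, in 4 of the 13 of genes not called and in Psme4. TGACNNNGC was in 6 of 37 promoters (16.2%, against 14.0% of all and 16.5% of those in the table), CCAAT in 13 (35.1%, against 41.1% and 43.0%) and GGGCGG in 23 (62.2%, against 38.2% and 63.0%). These counts describe letters in a window and were not tested.

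In siAldoa the 31 genes of the 20S core and the 19S particle matched by name were mostly lower, with log2 fold changes between -0.54 and -0.11. All 31 of them had a log2 fold change below 0, beside 50.4% of all genes. Of the 31, 24 were called lower by limma, 24 by edgeR and 22 by DESeq2. Over all 18001 genes these methods called 1809, 1866 and 1117 lower. At an unadjusted p-value under 0.05 (limma), 28 of the 31 were lower and 0 higher. The share of all genes at that threshold was not counted. It cannot be below the share called at the adjusted threshold (10.0% lower and 10.4% higher), so the unadjusted counts have no background here. The 31 genes had a median log2 fold change of -0.29, against 0.00 over all genes, and their summed level was 82.7% of that in siCtrl. Adrm1 and Shfm1 also encode 19S subunits but are not matched by the name rule. Neither was called (log2 fold change 0.01, adjusted p = 0.98 for Adrm1 and -0.06, adjusted p = 0.48 for Shfm1, limma). Of the 12 activator and chaperone genes, 3 were called lower (Psme3, Psmg2 and Pomp) and 2 higher (Psme4 and Psmd5). Including Psmc3ip, 28 of the 44 genes were called lower and 2 higher, and 14 were not called.

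These counts stand beside a response of many genes. Over all 18001 genes, 10.0% were called lower and 10.4% higher, beside 63.6% of the 44 genes lower and 4.55% higher. Proteasome genes are well expressed, and 40 of the 44 had a mean of at least 20 CPM. Of the 8271 genes at that level, 19.1% were called lower and 17.5% higher. In 33 of the 44 genes every siAldoa library lay below every siCtrl library, and in 2 every siAldoa library lay above, against 17.1% and 16.7% of all genes. Ranked by log2 fold change among all genes, 8 of the 44 were in the lowest 10% and 27 in the lowest 25%. Without replicate 3 in both groups, which leaves 2 libraries against 2, 11 genes were called lower (Psma1, Psma5, Psma6, Psma7, Psmb2, Psmb3, Psmb4, Psmc2, Psmd1, Psmd3 and Psmd14) and 1 higher (Psme4). Over all 18001 genes that setting called 520 lower and 494 higher, against 1809 and 1867 in the main fit. Between libraries of the same number, all 31 genes of the core and the 19S particle were lower in siAldoa replicates 1 and 3, and 30 of them, all but Psma3, in replicate 2. The median difference over the 44 genes was -0.26, -0.21 and -0.26 on the log2 scale in replicates 1, 2 and 3.

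**Figure D1:**
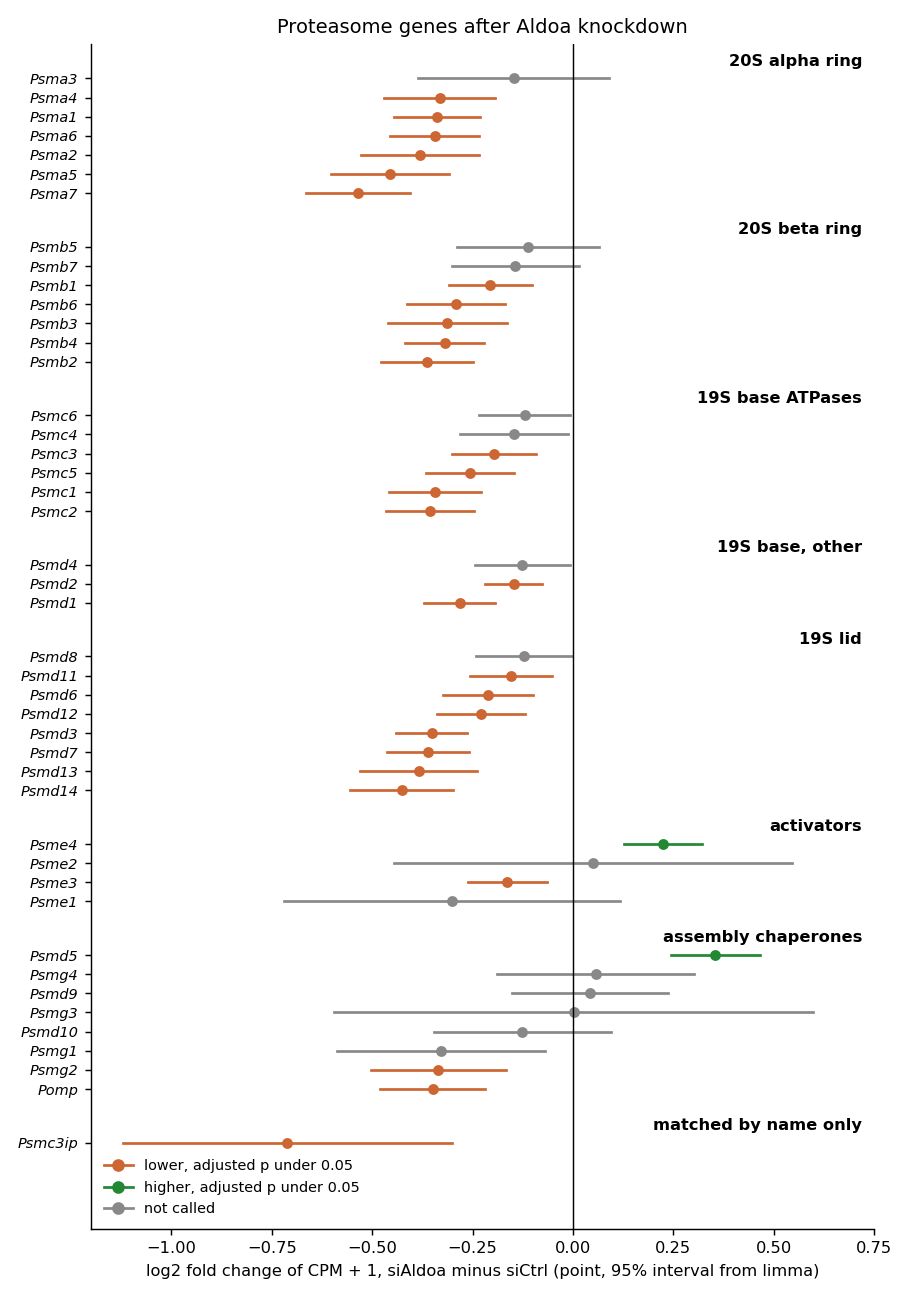
Log2 fold change of CPM + 1 (x axis, siAldoa minus siCtrl) for each of the 44 genes, grouped by place in the proteasome, as a point with its 95% interval from limma over 3 libraries per group. All 31 points of the 20S and 19S groups lie left of 0, and Psme4 and Psmd5 are the 2 genes called higher.

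**Figure D2:**
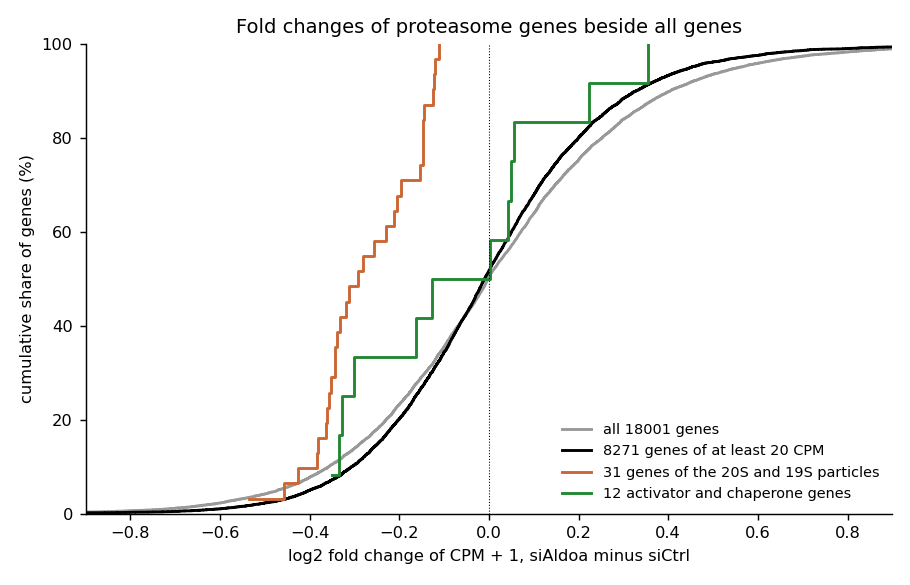
Cumulative share of genes (y axis, %) by log2 fold change of CPM + 1 (x axis, siAldoa minus siCtrl) for all 18001 genes, the 8271 genes of at least 20 CPM, the 31 genes of the 20S and 19S particles and the 12 activator and chaperone genes. The curve of the 31 genes reaches 100% left of 0, and that of the activators and chaperones crosses 0 near the curves of all genes.

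The alpha ring, which gates the entry to the core, had the lowest median log2 fold change of the 20S and 19S groups (-0.34), and 6 of its 7 genes were called lower. Psma7 was at 154, 163 and 184 CPM in siCtrl and 114, 109.8 and 120.2 CPM in siAldoa (log2 fold change -0.54 ± 0.06, adjusted p = 7.6e-07). It had the lowest log2 fold change of the proteasome genes proper, and every siAldoa library lay below every siCtrl library. Psma5 was at 86.3, 88.6 and 87.0 CPM in siCtrl and 57.5, 65.5 and 67.6 CPM in siAldoa (log2 fold change -0.46 ± 0.07, adjusted p = 3.9e-05), and Psma2 at 100.2, 119.5 and 113 CPM in siCtrl and 84.7, 78.6 and 91.6 CPM in siAldoa (log2 fold change -0.38 ± 0.07, adjusted p = 3.3e-04). Both groups of libraries were separate in these genes too, although siCtrl replicate 1 of Psma2 lay closest to siAldoa. Psma6, the alpha gene with the highest level per kb of its joined exons in siCtrl (116 ± 2.75 CPM per kb, SD), was at 144, 139 and 146 CPM in siCtrl and 110.4, 112 and 115 CPM in siAldoa (log2 fold change -0.34 ± 0.05, adjusted p = 3.7e-05). Psma1 was at 167, 165 and 168 CPM in siCtrl and 134, 125 and 136 CPM in siAldoa (log2 fold change -0.34 ± 0.05, adjusted p = 3.3e-05), and Psma4 at 111, 109 and 122 CPM in siCtrl and 82.6, 94.9 and 94.3 CPM in siAldoa (log2 fold change -0.33 ± 0.07, adjusted p = 6.7e-04). The remaining gene of the ring, Psma3, had overlapping groups, with 30.1, 32.0 and 30.2 CPM in siCtrl and 28.3, 32.1 and 23.3 CPM in siAldoa (log2 fold change -0.15 ± 0.11, adjusted p = 0.43). It was also the alpha gene with the lowest level per length, 7.90 ± 0.276 CPM per kb in siCtrl.

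The beta ring carries the proteolytic sites, and 5 of its 7 genes were called lower (median log2 fold change -0.29). Psmb2, a structural subunit with the highest level of the ring by joined exons (138 ± 9.0 CPM per kb in siCtrl), was at 156, 166 and 177 CPM in siCtrl and 129, 131 and 126 CPM in siAldoa (log2 fold change -0.36 ± 0.06, adjusted p = 2.9e-05). The other structural subunits called lower were Psmb4, with 253, 242 and 267 CPM in siCtrl and 197, 202 and 211 CPM in siAldoa (log2 fold change -0.32 ± 0.05, adjusted p = 2.4e-05), Psmb3, with 94.8, 104 and 96.3 CPM in siCtrl and 76.9, 72.4 and 88.2 CPM in siAldoa (log2 fold change -0.31 ± 0.07, adjusted p = 0.0025), and Psmb1, with 186, 178 and 180.2 CPM in siCtrl and 162, 159 and 150.3 CPM in siAldoa (log2 fold change -0.21 ± 0.05, adjusted p = 0.0039). In each of these 4 genes the siAldoa libraries were all below the siCtrl libraries. Among the 3 catalytic subunits, Psmb6, which carries the caspase-like site, was called lower, with 123, 112 and 121 CPM in siCtrl and 98.2, 94.3 and 97.7 CPM in siAldoa (log2 fold change -0.29 ± 0.06, adjusted p = 7.5e-04). Psmb5, the chymotrypsin-like subunit (log2 fold change -0.11 ± 0.08, adjusted p = 0.41), and Psmb7, the trypsin-like subunit (log2 fold change -0.14 ± 0.08, adjusted p = 0.21), did not pass the test. Their siAldoa libraries were nonetheless all below their siCtrl libraries, with 42.2, 45.1 and 44.2 CPM in siCtrl and 41.8, 40.6 and 39.0 CPM in siAldoa for Psmb5 and 62.2, 67.8 and 61.6 CPM in siCtrl and 53.4, 60.9 and 58.9 CPM in siAldoa for Psmb7. Whether the catalytic subunits differ from the structural ones in their response was not tested.

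The 6 ATPases of the 19S base form the ring that unfolds substrates and opens the core, and 4 of them were called lower (median log2 fold change -0.23). Psmc2 was at 155, 156 and 147 CPM in siCtrl and 117, 118 and 122 CPM in siAldoa (log2 fold change -0.36 ± 0.05, adjusted p = 2.2e-05), and Psmc1 at 161, 178 and 181 CPM in siCtrl and 133, 133 and 143 CPM in siAldoa (log2 fold change -0.34 ± 0.06, adjusted p = 6.9e-05). Both were lower in siAldoa without overlap, by about the same difference. Psmc5, the ATPase gene with the highest level by joined exons (108 ± 1.99 CPM per kb in siCtrl), was at 152, 150.5 and 147 CPM in siCtrl and 124, 131 and 121 CPM in siAldoa (log2 fold change -0.26 ± 0.05, adjusted p = 9.2e-04). Psmc3 was at 160.2, 156 and 165 CPM in siCtrl and 139.8, 137 and 143 CPM in siAldoa (log2 fold change -0.20 ± 0.05, adjusted p = 0.0068). The groups were separate in these genes as well, with a smaller difference for Psmc3 than for Psmc1 and Psmc2. Psmc4 (log2 fold change -0.15 ± 0.06, adjusted p = 0.12) and Psmc6 (log2 fold change -0.12 ± 0.05, adjusted p = 0.13) did not pass the test, and the libraries overlapped for Psmc4 but not for Psmc6.

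Of the 3 other base subunits, Psmd1 and Psmd2, the large scaffolds to which ubiquitin receptors dock, were called lower. Psmd1 was at 284, 300.1 and 294 CPM in siCtrl and 236, 241 and 245 CPM in siAldoa (log2 fold change -0.28 ± 0.04, adjusted p = 2.8e-05). Psmd2, which had the highest level of all 44 genes by joined exons (138 ± 0.981 CPM per kb in siCtrl), was at 555, 559.7 and 562 CPM in siCtrl and 509, 505 and 500.1 CPM in siAldoa (log2 fold change -0.15 ± 0.03, adjusted p = 0.0028). The SD between libraries of Psmd2 was 3.96 CPM in siCtrl and 4.3 CPM in siAldoa, smaller than the difference, but with quantile normalization the gene was not called (log2 fold change -0.06, adjusted p = 0.27). The ubiquitin receptor Psmd4 was at 122, 124 and 130.4 CPM in siCtrl and 121, 111 and 113 CPM in siAldoa (log2 fold change -0.13 ± 0.06, adjusted p = 0.13), and was not called although its groups did not overlap.

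Of the 8 lid genes, 7 were called lower (median log2 fold change -0.29). Psmd14, the subunit that cuts ubiquitin chains off the substrate, had the lowest log2 fold change of the 19S genes, with 104, 103 and 112 CPM in siCtrl and 77.2, 82.3 and 77.5 CPM in siAldoa (log2 fold change -0.43 ± 0.06, adjusted p = 1.7e-05). Psmd7, its catalytically inactive partner and the lid gene with the highest level per length (119 ± 7.49 CPM per kb in siCtrl), was at 281, 249 and 275 CPM in siCtrl and 209, 215 and 201 CPM in siAldoa (log2 fold change -0.36 ± 0.05, adjusted p = 6.9e-06). The siAldoa libraries of both genes lay well below those of siCtrl. The other lid genes encode scaffold subunits. Psmd13 was at 119, 105 and 124 CPM in siCtrl and 93.9, 80.7 and 91.4 CPM in siAldoa (log2 fold change -0.38 ± 0.07, adjusted p = 2.6e-04), Psmd3 at 327, 324 and 335 CPM in siCtrl and 265, 246 and 262 CPM in siAldoa (log2 fold change -0.35 ± 0.04, adjusted p = 1.5e-06). Psmd12 was at 174, 163 and 167 CPM in siCtrl and 152, 138 and 140.3 CPM in siAldoa (log2 fold change -0.23 ± 0.05, adjusted p = 0.0028), and Psmd6 at 126, 127 and 129 CPM in siCtrl and 109, 113 and 108 CPM in siAldoa (log2 fold change -0.21 ± 0.05, adjusted p = 0.0062). In all 4 scaffold genes the libraries of the groups were separate, and with DESeq2 Psmd6 missed the threshold (adjusted p = 0.052). Psmd11 had the smallest difference of the called lid genes, with 194, 184 and 190.5 CPM in siCtrl and 174, 162 and 174 CPM in siAldoa (log2 fold change -0.15 ± 0.05, adjusted p = 0.028). Its call was lost without siCtrl replicate 1 (log2 fold change -0.14, adjusted p = 0.11), siCtrl replicate 3 (-0.15, adjusted p = 0.089), siAldoa replicate 1 (-0.17, adjusted p = 0.053) or siAldoa replicate 2 (-0.12, adjusted p = 0.14). Psmd11 also missed the threshold with DESeq2 (adjusted p = 0.10). With limma it did so after quantile normalization (0.14), after scaling by total reads (0.071) and without the variance trend (0.22). Psmd8 was not called (log2 fold change -0.12 ± 0.06, adjusted p = 0.15), with separate libraries of 107, 104 and 107 CPM in siCtrl and 99.3, 94.6 and 98.2 CPM in siAldoa.

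**Figure D3:**
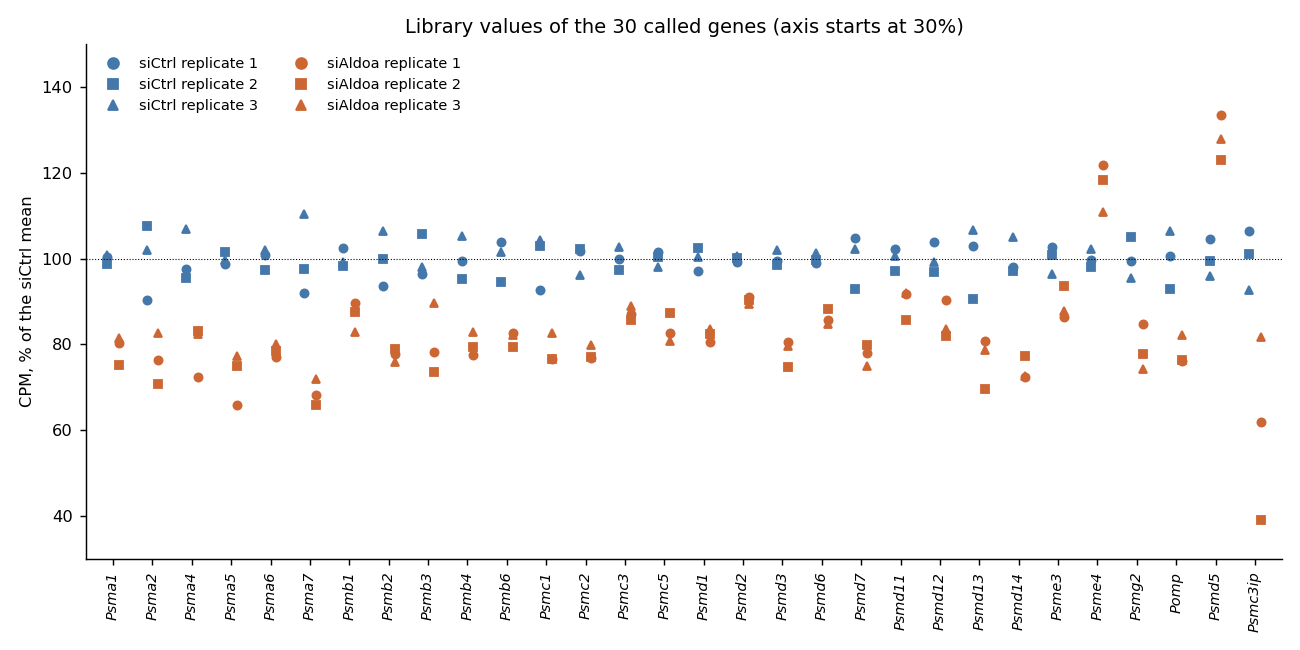
CPM of each library as a percentage of the gene's siCtrl mean (y axis, starting at 30%) for the 30 called genes, with siCtrl in blue, siAldoa in orange and a symbol for each replicate. The siAldoa libraries lie below the siCtrl libraries for 28 genes and above them for Psme4 and Psmd5.

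The sum over genes shows the same in each library. The 20S core genes summed to 1709, 1732 and 1798 CPM in siCtrl and to 1371, 1379 and 1419 CPM in siAldoa, 79.6% of the siCtrl mean, and all siAldoa libraries lay below all siCtrl libraries. In siAldoa the alpha ring was at 76.3% of the siCtrl mean, the beta ring at 82.4%, the base ATPases at 84.4%, the other base subunits at 88.0% and the lid at 81.8%. These differences between groups of subunits were not tested. An exact permutation test of 3 libraries against 3 cannot give a p-value below 0.1, so none is given for the sums. The activators summed to 102% and the chaperones to 98.3% of the siCtrl mean, with overlapping libraries.

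**Figure D4:**
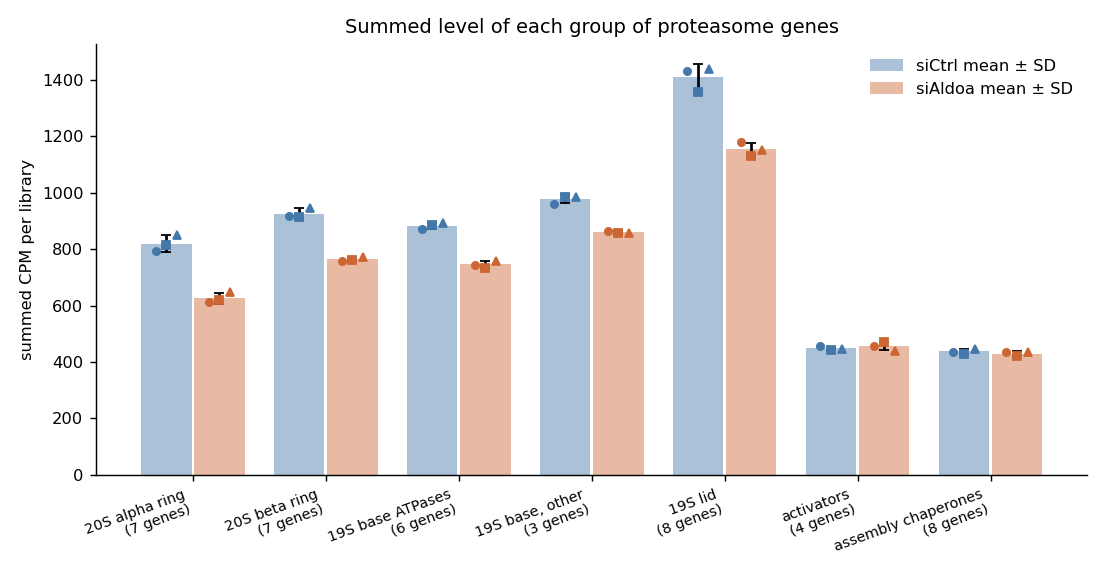
Summed CPM per library (y axis) of each group of proteasome genes, with bars for the mean and SD of 3 libraries and points for the libraries, siCtrl in blue and siAldoa in orange. The bars of the 5 groups of core and 19S genes are lower in siAldoa, and those of the activators and chaperones are level.

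The activators bind the ends of the core in place of the 19S particle, and 1 of the 4 genes rose, 1 fell and 2 did not pass the test. Psme4, which encodes a large nuclear activator, was at 203, 199.7 and 208 CPM in siCtrl and 248, 241 and 226 CPM in siAldoa (log2 fold change 0.22 ± 0.05, adjusted p = 0.0011). Each siAldoa library was above each siCtrl library, in a set of genes of which most were lower. The call of Psme4 was lost when limma was run without the variance trend (adjusted p = 0.11). It was also lost without replicate 1 or without replicate 2 in both groups, which leaves 2 libraries against 2. Relative to the summed 20S genes, Psme4 was at 11.9, 11.5 and 11.6 CPM per 100 CPM in siCtrl and at 18.1, 17.5 and 15.9 in siAldoa. Psme3, a nuclear activator with the highest level per length of the activators (78.2 ± 2.54 CPM per kb in siCtrl), was at 237, 232 and 222 CPM in siCtrl and 199, 216 and 202 CPM in siAldoa (log2 fold change -0.16 ± 0.05, adjusted p = 0.016). Its call was lost without siCtrl replicate 1 (log2 fold change -0.14, adjusted p = 0.087), siCtrl replicate 2 (-0.16, adjusted p = 0.068), siAldoa replicate 1 (-0.14, adjusted p = 0.095) or siAldoa replicate 3 (-0.15, adjusted p = 0.072), and with DESeq2 (adjusted p = 0.055). Psme1 and Psme2, whose products form the activator induced by interferon, were rare, with at most 41 reads in any library, and were at -0.30 (adjusted p = 0.34) and 0.05 (adjusted p = 0.92) on the log2 scale. Psmb9, the inducible catalytic subunit left out by the rule, had 1 to 4 reads per library.

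Among the 8 chaperones, which help the proteasome to assemble and are not part of the finished particle, 2 fell and 1 rose. Pomp, the factor that helps the core to mature, was at 115, 106 and 122 CPM in siCtrl and 87.2, 87.4 and 94.3 CPM in siAldoa (log2 fold change -0.35 ± 0.06, adjusted p = 2.5e-04). Psmg2, a chaperone of the alpha ring, was at 56.7, 59.9 and 54.5 CPM in siCtrl and 48.3, 44.4 and 42.4 CPM in siAldoa (log2 fold change -0.34 ± 0.08, adjusted p = 0.0040). The siAldoa libraries of both genes were all below those of siCtrl. Psmg1, the partner of Psmg2, had a similar difference but overlapping groups, with 32.0, 33.4 and 45.0 CPM in siCtrl and 24.8, 28.6 and 33.5 CPM in siAldoa (log2 fold change -0.33 ± 0.12, adjusted p = 0.068). Its siCtrl replicate 3 was the highest library, and Psmg1 passed the test with edgeR and with a filter on low genes. Psmg4, the chaperone with the highest level by joined exons (42.1 ± 5.09 CPM per kb in siCtrl), was at 21.1, 26.5 and 22.5 CPM in siCtrl and 24.3, 23.8 and 24.6 CPM in siAldoa (log2 fold change 0.06 ± 0.12, adjusted p = 0.81). Its groups overlapped. Psmg3 had 2 to 7 reads per library, so that no difference was detectable at this depth.

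Psmd5, Psmd9 and Psmd10 encode chaperones of the 19S base, each of which binds certain ATPases before the base meets the core. Psmd5 rose and had the highest log2 fold change of the 44 genes, with 140.2, 133 and 129 CPM in siCtrl and 179, 165 and 172 CPM in siAldoa (log2 fold change 0.35 ± 0.05, adjusted p = 2.5e-05). All siAldoa libraries were above all siCtrl libraries. Relative to the summed base ATPases, Psmd5 was at 16.1, 15.1 and 14.4 CPM per 100 CPM in siCtrl and at 24.0, 22.5 and 22.6 in siAldoa. Psmd9 (log2 fold change 0.04 ± 0.09, adjusted p = 0.82) and Psmd10 (log2 fold change -0.13 ± 0.11, adjusted p = 0.47) did not pass the test and had overlapping groups. Without replicate 3 in both groups, Psmd5 was just outside the threshold (log2 fold change 0.33, adjusted p = 0.053). Psmc3ip was at 16.7, 15.9 and 14.6 CPM in siCtrl and 9.72, 6.15 and 12.8 CPM in siAldoa (log2 fold change -0.71 ± 0.20, adjusted p = 0.012), with 23 to 61 reads. Its call was lost without siCtrl replicate 1 (adjusted p = 0.085), siCtrl replicate 2 (adjusted p = 0.074), siCtrl replicate 3 (adjusted p = 0.053), siAldoa replicate 1 (adjusted p = 0.057) or siAldoa replicate 2 (adjusted p = 0.11), and 21.2% of its exon bases overlap Mlx on the opposite strand.

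Levels per length spread widely among the genes of the complex. In siCtrl they ran from 7.90 CPM per kb (Psma3) to 138 CPM per kb (Psmd2 and Psmb2) among the 31 genes of the core and the 19S particle, with a median of 51.6 CPM per kb over the 20S genes. Psmd2 and Psmb2 differed by less than the SD of Psmb2. The levels depend on the gene model, since the median over the 20S genes was 95.1 CPM per kb when the longest transcript was used as the length. The order also turned with it: Psma1 was then above Psma6 (139 and 137 CPM per kb), Psmc1 above Psmc5 (109 and 108) and Psmg2 above Psmg4 (43.9 and 42.1), and Psmb4 (215) was above Psmb2 (194) and Psmd2 (186). Psma3 and Psmb7 (18.7 ± 1.00 CPM per kb) were the lowest of the core. Near-identical copies of Psma3 together had 65.6% of its CPM, and reads were aligned without splitting over introns. The part of copies and of alignment in these levels was not tested.

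The level of some genes is uncertain because of near-identical copies. Transcripts of 12 of the 44 genes aligned to another gene of the table at 90% identity or more over at least 200 bases, mostly processed pseudogenes. Those of Psmc2 were 5 protein-coding genes that share stretches of 266 to 680 bases with it, and no sum is given for it. How reads that map to several places were counted is not given in the sources used here. For Psma5, the pseudogenes Gm8394 and Gm12989 together had 259% of the CPM of Psma5 itself, and both were called lower (log2 fold change -0.33, adjusted p = 1.6e-04, and -0.39, adjusted p = 1.8e-04). For Psmb5, Gm3375 had 162% of its CPM, and for Psmd2, Gm5422 had 86.1%. When the CPM of each of the other 11 genes and its copies were summed, every siAldoa library lay below every siCtrl library for Psma5, Psmb1, Psmb3, Psmb5, Psmb6, Psmb7, Psmc1, Psmd13 and Psmd2, and not for Psma3 and Psme1. The sums differed by -0.39 for Psma5, -0.37 for Psmc1 and -0.14 for Psmd2 on the log2 scale. Exons of Psmc3, Psmd13, Psmb7 and Psmd9 also overlap exons of a gene on the opposite strand (Slc39a13, Sirt3, Nek6 and Gm26745) over 8.25%, 10.1%, 11.8% and 25.5% of their length, and the use of strand in counting is not given in the sources used here.

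The NFE2L1 axis, a list of 12 genes around the factor that controls proteasome genes, held 5 genes called higher (41.7%) and 0 called lower by limma (median log2 fold change 0.21), beside 10.4% higher and 10.0% lower over all genes and 17.5% and 19.1% over those of at least 20 CPM. edgeR and DESeq2 also called 5 higher and 0 lower, beside 1920 and 1066 genes called higher over all 18001. At an unadjusted p-value under 0.05 (limma) the counts were 6 and 0. The share of all genes at that threshold was not counted. It cannot be below the share called at the adjusted threshold, so the unadjusted counts have no background here. Nfe2l1 itself was at 348, 356 and 351 CPM in siCtrl and 355, 312 and 325 CPM in siAldoa (log2 fold change -0.09 ± 0.04, adjusted p = 0.17), with overlapping groups, and was called lower when siAldoa replicate 1 was left out (log2 fold change -0.14, adjusted p = 0.040). Ddi2, the protease that cleaves NFE2L1 into its active form, rose, with 53.1, 63.5 and 64.3 CPM in siCtrl and 79.1, 81.2 and 86.9 CPM in siAldoa (log2 fold change 0.45 ± 0.08, adjusted p = 1.4e-04). Nfe2l2, which encodes the related factor of the antioxidant response, rose as well, with 121, 126 and 123 CPM in siCtrl and 164, 167 and 152 CPM in siAldoa (log2 fold change 0.38 ± 0.05, adjusted p = 1.2e-05). The groups did not overlap for either gene. The 3 small MAF genes, whose products pair with NFE2L1 and NFE2L2, were all called higher. Maff was at 28.8, 29.8 and 31.2 CPM in siCtrl and 51.8, 56.4 and 49.2 CPM in siAldoa (log2 fold change 0.79 ± 0.09, adjusted p = 6.2e-07), Mafg at 171, 169 and 165 CPM in siCtrl and 255, 241 and 254 CPM in siAldoa (log2 fold change 0.56 ± 0.05, adjusted p = 3.6e-09) and Mafk at 48.3 ± 1.59 CPM in siCtrl and 60.4 ± 2.89 CPM in siAldoa (mean ± SD, n = 3; log2 fold change 0.32 ± 0.08, adjusted p = 0.0041). In these genes, too, all siAldoa libraries lay above all siCtrl libraries. Ngly1, which removes sugars from NFE2L1, Syvn1, Sel1l, Bach1, Keap1 and Nfe2l3 did not pass the test.

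**Figure D5:**
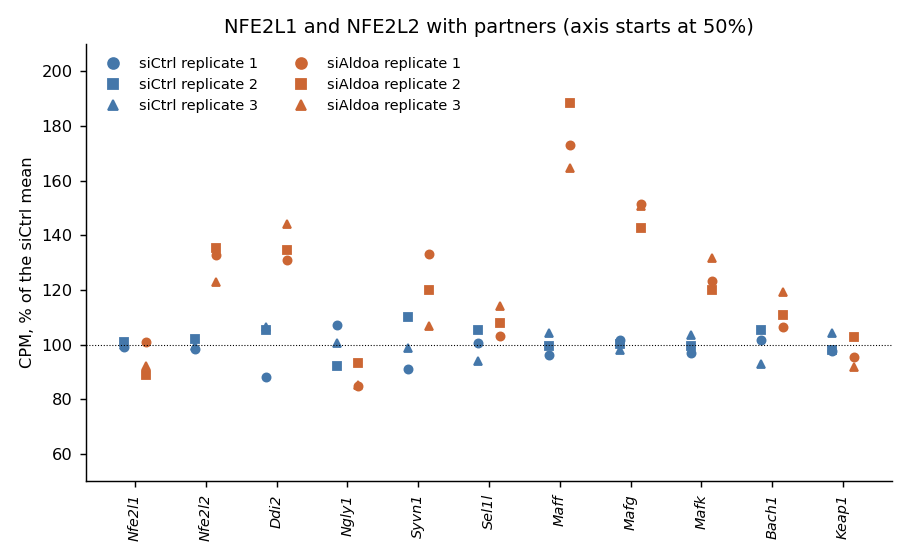
CPM of each library as a percentage of the gene's siCtrl mean (y axis, starting at 50%) for 11 genes of the NFE2L1 axis, with siCtrl in blue, siAldoa in orange and a symbol for each replicate. The siAldoa libraries of Nfe2l2, Ddi2, Maff, Mafg and Mafk lie above their siCtrl libraries, and those of Nfe2l1 overlap them.

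Of 17 genes of proteins that work with the proteasome, 3 were called lower (17.6%) and 1 higher (5.88%), shares below those of all genes of at least 20 CPM (19.1% and 17.5%). The ubiquitin shuttles Ubqln2 (log2 fold change -0.29 ± 0.06, adjusted p = 6.9e-04) and Rad23b (log2 fold change -0.15 ± 0.03, adjusted p = 0.0034) fell. AI314180, the file's name for the scaffold gene Ecpas, was called lower (log2 fold change -0.12 ± 0.04, adjusted p = 0.033) and Zfand2a, a zinc finger gene induced by stress, was called higher (log2 fold change 0.24 ± 0.08, adjusted p = 0.027). The call of AI314180 was lost without any of the 6 libraries in turn (adjusted p between 0.053 and 0.14), and that of Zfand2a without any library other than siAldoa replicate 2 (adjusted p between 0.052 and 0.18). Adrm1, the ubiquitin receptor of the base, was at 53.1, 49.0 and 47.4 CPM in siCtrl and 51.5, 46.0 and 52.6 CPM in siAldoa, with overlapping groups (log2 fold change 0.01 ± 0.08, adjusted p = 0.98). Of 11 genes of ubiquitin supply and of the VCP segregase, which extracts ubiquitinated proteins, 4 were called lower (36.4%) and 2 higher (18.2%). Over genes of at least 20 CPM these shares were 19.1% and 17.5%. Vcp (log2 fold change -0.21 ± 0.05, adjusted p = 0.0048) and its cofactors Nsfl1c (log2 fold change -0.31 ± 0.07, adjusted p = 0.0030) and Ufd1l (log2 fold change -0.19 ± 0.06, adjusted p = 0.032) were called lower, and so was Uba1, the ubiquitin-activating enzyme (log2 fold change -0.17 ± 0.05, adjusted p = 0.015). Faf1, another cofactor of VCP, was called higher (log2 fold change 0.17 ± 0.05, adjusted p = 0.018). Ufd1l, Uba1 and Faf1 each lost the call when certain libraries were left out, with an adjusted p of up to 0.15 for Ufd1l, 0.13 for Uba1 and 0.13 for Faf1.

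The COP9 signalosome, whose subunits are related to those of the lid, and the cytosolic chaperonin, another ring complex built of many subunits, were set beside the proteasome. Over all genes of at least 20 CPM, 19.1% were called lower. Of 9 signalosome genes, 3 were called lower (33.3%), Cops2 (log2 fold change -0.24 ± 0.05, adjusted p = 5.3e-04), Cops7a (log2 fold change -0.27 ± 0.06, adjusted p = 0.0012) and Cops8 (log2 fold change -0.22 ± 0.08, adjusted p = 0.049), and the median log2 fold change was -0.11. The call of Cops8 was lost without any library other than siCtrl replicate 2 (adjusted p between 0.066 and 0.3). Of 8 chaperonin genes, 6 were called lower (75%; Tcp1, Cct3, Cct5, Cct6a, Cct7 and Cct8), with log2 fold changes between -0.29 and -0.12, and the median of the 8 was -0.14. With quantile normalization Tcp1, Cct3, Cct5 and Cct7 were not called (adjusted p between 0.24 and 0.50), and without 1 library Cct5 and Cct7 lost the call (adjusted p up to 0.081). The medians of both complexes lay between that of all genes and those of the 19S particle (-0.23) and the 20S core (-0.33). The chaperonin median was near that of the other base subunits (-0.15). Its share called lower was near that of the 31 genes of the core and the 19S particle (77.4%). The difference between complexes was not tested.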

How the data were processed

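Poly(A) RNA from 3 siCtrl and 3 siAldoa samples was sequenced by the authors with a strand-specific kit, aligned to mm10 with Bowtie2 (version 2.2.7, per the submitters' processing notes), which does not split reads over introns, subsampled to equal numbers per sample and counted per gene, and was deposited as CPM. In the methods, genes under 12 reads were dropped, while the table held 1834 such genes. External RNA standards were added at lysis in replicate 1 and after extraction in the others. Annotation and strand use in counting are not given in the sources used here. The authors' own comparison (log2 fold changes and p-values) was deposited too and was not used.

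Dividing each deposited CPM by what 1 read was worth in its library gave whole reads (100% of values, within 0.001 reads). Totals were 3692341 to 3771129 reads. Precision from counts covers counting error only. The test was limma with its variance trend (version 3.58.1, in R 4.3.3), run on log2(CPM + 1). edgeR (version 4.0.16) called 29 and DESeq2 (version 1.42.0) 25 of the 44 genes lower on recovered reads. Over all genes they called 1866 and 1117 lower. Simulated counts were run through limma (with and without the variance trend, and with the replicate block), edgeR and DESeq2. The simulation used the same dispersion for all genes and larger changes than those of the proteasome genes. It therefore does not show how the tests perform on these data. Genes were located in GENCODE annotation of GRCm38 (17932 of 18001 matched) and copies found with blastn (version 2.17.0). Levels per length used the union of exons.

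The members and lists were chosen with earlier results of these data known. Library values were to be given for genes called with separate groups and for the gene of highest level per length in each group of subunits, and related lists by their called genes with Nfe2l1, Adrm1 and Psmb8. Replicates 1 and 2 of a group differed beyond counting noise (chi-square per degree of freedom 1.12 in siCtrl and 1.11 in siAldoa, against 1.97 to 3.03 for pairs with replicate 3) and were kept as separate samples. Psma8, Psmb8, Psmb10, Psmb11, Paaf1, Ddi1 and Cops9 were not analysed here, and 1 called gene of the related lists is not reported here.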

Additional observations from a re-analysis of the deposited data

How the results depend on the processing

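Psma1, Psma5, Psma6, Psma7, Psmb2, Psmc2, Psmd3 and Psmd14 were called lower under all 19 alternatives, and Aldoa too. Of the 44 genes, Psmc3ip included, 28 were called lower in the main fit. The count was 25 to 29 with another pseudocount, a filter on low genes, other scalings, edgeR, DESeq2 or replicates 1 and 2 averaged. The scaling by total reads, chosen after seeing the data, moved the median of all genes from 0.00 to 0.02. When the variance trend was left out, 9 proteasome genes passed as lower and 1 as higher: 4 of the alpha ring, 1 of the beta ring, 1 base ATPase, 3 of the lid and 0 of the other base subunits, activators and chaperones, and in the related lists 1 lower and 3 higher. Over all genes that setting called 1440 against 3676. Quantile normalization called 8 related genes lower against 16, 1 of the other base subunits and 0 activators, and DESeq2 called 0 activators. Leaving out libraries or replicate numbers gave 11 to 27 genes lower and 1 to 2 higher, medians of -0.29 to -0.23, and in the related lists 3 to 15 lower and 3 to 7 higher. Over all genes these settings called 520 to 1371 lower and 494 to 1464 higher. By group, these settings called 4 to 6 of the alpha ring, 2 to 5 of the beta ring, 1 to 4 base ATPases, 1 to 2 other base subunits, 2 to 7 of the lid, 0 to 1 activators and 0 to 2 chaperones lower. Without a replicate number only 2 libraries per group are left.

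Libraries of the same number deviated from the means of their groups with correlations of 0.04, 0.04 and 0.21 over 8271 genes, and siCtrl replicate 2 with siAldoa replicate 1 at 0.12. Replicate 3 of either group with replicates 1 and 2 of the other was at -0.15 to -0.08. Whether the libraries of replicate 3 share a batch was not tested. The main fit did not pair the samples by number, and a fit with the replicate block is given beside it. With the replicate block 29 genes were called lower, Psmg1 in addition, and 2 higher, and 13 related genes lower and 7 higher. Over all genes the block called 1559 lower and 1611 higher. The block ended the calls of Ufd1l (adjusted p = 0.062), Cops8 (0.059), AI314180 (0.053) and Zfand2a (0.059).

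The sign turned for genes near 0 that were never called. Psmg3 was at -0.064 with a pseudocount of 0.1 and between -0.29 and 0.22 when libraries or replicate numbers were left out. Adrm1 was at -0.013 with quantile normalization and between -0.066 and 0.065 with libraries left out. Such settings gave -0.013 to 0.16 for Psmg4, -0.077 to 0.18 for Psme2 and -0.039 to 0.18 for Psmd9. With replicates 1 and 2 averaged, Psme2 was at -0.018 and Psmd9 at -0.026. At 95% identity, 7 genes had near-identical copies. Depth limits Psmg3, Psme1, Psme2 and Psmc3ip, with 2 to 61 reads per library.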

Other observations

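Pseudogenes left out by the name rule were counted apart, from reads aligned without splitting over introns. The part of reads from the genes they match in these values was not tested. Psmb6-ps2 had 68.5, 64.0 and 56.4 CPM in siCtrl and 50.5, 53.5 and 49.7 CPM in siAldoa, with every siAldoa library below every siCtrl library (log2 fold change -0.29, adjusted p = 0.013 with limma and 0.072 with DESeq2), and its nearest gene, Psmb6, was at the same log2 fold change of -0.29. Psmb6-ps, with 26 to 42 reads per library, had overlapping groups (log2 fold change -0.01, adjusted p = 0.996). Copies of other genes differed in the same direction as the gene they match for Psmb3 (Gm4950, log2 fold change -0.31, adjusted p = 0.0058) and Psmc1 (Gm9575, -0.41, adjusted p = 0.0011). Other copies did not: Gm4742 of Psma3 (0.05, adjusted p = 0.88) and Gm7776 of Psme1 (0.32, adjusted p = 0.39) were above 0 and not called. Gm14830 of Psmb1 and Gm7419 of Psmd13 were below 0 but not called (adjusted p = 0.29 and 0.11, limma). Reads of these copies and of the genes cannot be told apart from the values used here.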
